A study of Caenorhabditis elegans with 2 samples.

Results

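A total of 163 snoRNA genes of Caenorhabditis elegans lie outside same-strand hosts, and their occupancy by the transcription factor LIM-7 is described here. They were taken from the 346 genes of biotype snoRNA in the Ensembl annotation of WBcel235 as those not fully within the span of a protein-coding gene on the same strand. The rule uses positions only and no measured value. Of the 163, 124 were intergenic, 33 lay within a protein-coding gene on the opposite strand (antisense-nested), 5 overlapped such a gene in part and 1 overlapped a same-strand gene in part. The other 183 snoRNA genes, called host-nested below, lie inside a same-strand protein-coding gene. All 46890 annotated nuclear genes served as background.

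Small nucleolar RNAs guide chemical modification of other RNAs, above all ribosomal RNA. Those of the box C/D kind guide methylation of the ribose, and those of the box H/ACA kind guide the change of uridine to pseudouridine. Many are cut from the introns of host genes, whereas others are transcribed from promoters of their own, so a snoRNA gene outside a same-strand host is a candidate for a promoter of its own. RNA polymerase III reads tRNA genes through a pair of internal elements, the A box and the B box, which the factor TFIIIC binds, and such elements are known ahead of some nematode snoRNAs. LIM-7 is a LIM-homeodomain protein of the Islet class, known in worms from the sheath cells of the gonad, and homeodomains commonly bind DNA with the core TAAT.

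Binding was measured by chromatin immunoprecipitation and sequencing with an antibody against GFP in whole L4 larvae of strain OP779, aged 48.5 hours and grown from L1 larvae that had been starved after bleaching. The strain carries the integrated transgene wgIs779, a lim-7 gene joined to TY1, EGFP and 3xFLAG tags and carried with unc-119(+), in the unc-119 (tm4063) background. Both samples were biological replicates of this 1 group, and it rests on 1 transgenic line. No comparison between conditions exists, the control experiment that the labels name was not analysed here, and read depth is unknown from peak lists. In whole larvae, binding in more cells and stronger binding in the same cells cannot be told apart.

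A gene was called occupied when the summit of a peak lay within 500 bp of its annotated start. The main list was the authors' 1804 peaks from both replicates, kept for a low irreproducible discovery rate (IDR), an estimate of how often peaks this highly ranked fail to recur. Each peak carries a signal value of the authors' own with no stated scale. It therefore ranks peaks within a list, and values from different lists are given side by side only. The lists of single replicates held 883 peaks for replicate 1 and 920 for replicate 2.

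At some of the strongest summits, though not all, the sequence before the snoRNA start held letters like those of the A and B boxes of a tRNA gene. The following are the 95 bases before the start of 6 of the 9 occupied members that carry both elements, shown for the layout of these strings. They are read 5′ to 3′ on the strand of the gene from the RefSeq sequence of WBcel235 (ce11). Every summit of this kind fell between or on the capitals, a stretch where summits of members without the strings also lay. Capitals mark TGGCNNA, an A-box-like string, and GTTCNANNC, a B-box-like string.
W03C9.9, chrII:11960803-11960897, plus strand: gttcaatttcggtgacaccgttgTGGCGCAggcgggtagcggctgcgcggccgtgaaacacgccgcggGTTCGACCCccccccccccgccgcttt
T03F7.8, chrV:11314163-11314257, plus strand: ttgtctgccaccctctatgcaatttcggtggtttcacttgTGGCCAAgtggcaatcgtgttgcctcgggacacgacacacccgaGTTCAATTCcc
F32E10.10, chrIV:7574027-7574121, plus strand: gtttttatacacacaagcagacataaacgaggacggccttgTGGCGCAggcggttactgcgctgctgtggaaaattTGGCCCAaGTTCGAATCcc
C41C4.11, chrII:8107271-8107365, minus strand: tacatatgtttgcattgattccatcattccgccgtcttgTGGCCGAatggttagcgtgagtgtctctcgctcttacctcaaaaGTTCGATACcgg
C04G6.12, chrII:5105232-5105326, minus strand: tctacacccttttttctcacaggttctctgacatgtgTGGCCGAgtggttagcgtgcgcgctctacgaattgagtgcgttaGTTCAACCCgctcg
T10B9.11, chrII:9774835-9774929, minus strand: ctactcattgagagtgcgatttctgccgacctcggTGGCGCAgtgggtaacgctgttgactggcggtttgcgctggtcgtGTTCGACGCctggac

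A different arrangement preceded another group of occupied members, whose summits were weaker. Capitals in the following lines mark CGGAAC and GTCGGNCG, strings that were noticed in these sequences after their occupancy was known. ZK185.9 has GTCGGNCG alone. Both strings also stood before members with no summit.
Y55F3BR.9, chrIV:867134-867228, minus strand: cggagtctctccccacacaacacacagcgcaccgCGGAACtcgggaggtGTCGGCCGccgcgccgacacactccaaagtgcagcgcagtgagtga
T26A8.6, chrIV:8428740-8428834, minus strand: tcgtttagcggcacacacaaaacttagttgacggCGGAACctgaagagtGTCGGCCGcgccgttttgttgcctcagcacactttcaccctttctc
C16D9.10, chrV:8247962-8248056, minus strand: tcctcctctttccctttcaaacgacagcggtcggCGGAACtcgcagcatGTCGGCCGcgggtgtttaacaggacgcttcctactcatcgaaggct
ZK185.9, chrIV:4538917-4539011, minus strand: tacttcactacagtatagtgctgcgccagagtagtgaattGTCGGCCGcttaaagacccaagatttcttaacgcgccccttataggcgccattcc

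W03C9.9 itself is 62 bases long and has the ends of a box C/D snoRNA, TGATG near the 5′ end and CTGA near the 3′ end, which pair up in the RNA to form the site where the methylation proteins assemble. In its sequence, shown for those boxes, capitals mark every TGATG and CTGA.
W03C9.9, chrII:11960898-11960959, plus strand: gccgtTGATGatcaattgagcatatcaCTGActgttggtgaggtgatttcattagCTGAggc

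Of the 163 snoRNA genes outside same-strand hosts, 44 were occupied (27%, exact 95% binomial interval 20.3 to 34.5), against 3.83% of all nuclear genes. The 44 shared 43 summits. The share was 24.2% for intergenic members (30 of 124) and 33.3% for antisense-nested members (11 of 33), whose intervals (17 to 32.7 and 18 to 51.8) overlap. Of the 5 members with a part overlap on the opposite strand, 3 were occupied (W01C9.6, T27A3.9 and T02E1.9). The 1 with a same-strand overlap was not. Intervals cover counting error only, and neighbouring genes are not independent of each other.

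The share of occupied host-nested snoRNA genes was 24.6% (45 of 183, interval 18.5 to 31.5), an interval that overlaps that of the members. Protein-coding genes were at 2.68% (536 of 19973) and tRNA genes at 77.5% (474 of 612). The shares of members and of host-nested genes therefore lay between those classes. They were near that of snRNA genes, at 23.3% (30 of 129). Genes are not replicates, so these differences carry no test.

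**Figure D1:**
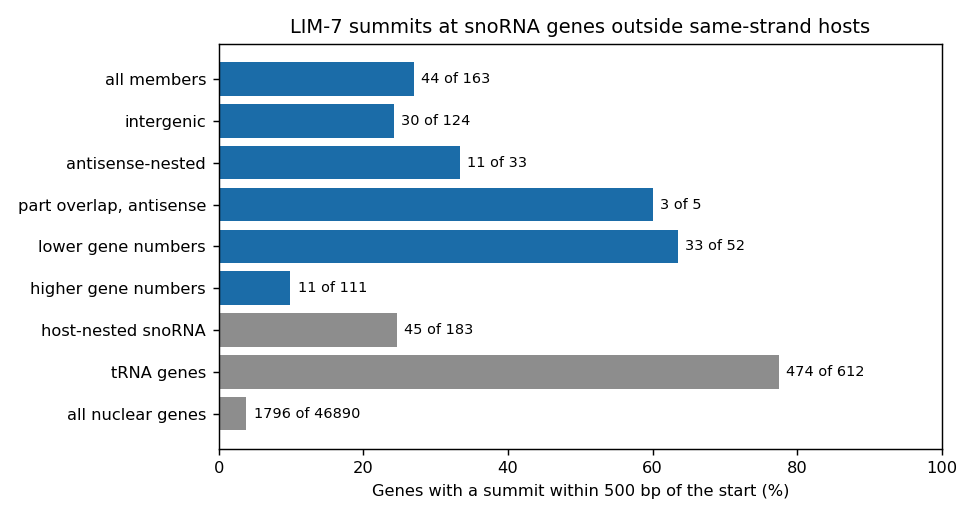
Share of genes (%) with a LIM-7 summit within 500 bp of the start, for snoRNA genes outside same-strand hosts and their subgroups (blue) and for other gene classes (grey), with counts beside the bars. The 163 members stand at 27% and host-nested snoRNA genes at 24.6%, between all nuclear genes at 3.83% and tRNA genes at 77.5%, and members with lower gene numbers stand at 63.5%.

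In each of the other lists the share of members was also above that of all genes. In the conservative list 43 members were occupied (26.4%), against 3.66% of all genes. In the list of replicate 1 alone 33 were occupied (20.2%), against 2.61% of all genes, and in that of replicate 2 alone 36 (22.1%), against 2.63%. The nearness to snRNA genes was not kept in the list of replicate 1, where 11 of 129 snRNA genes were occupied (8.53%). In that of replicate 2 the count was 21 of 129 (16.3%), and in the conservative list 29 of 129 (22.5%). Occupied members were found on all 6 chromosomes, from 14 of 36 on chromosome II to 3 of 23 on X.

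Summits at members had higher signals than those at host-nested genes. The signal of the 44 ran from 77.8 to 822 with a median of 282 and quartiles of 105 and 385, against a median of 148 (27.5 to 782) at the 45 host-nested genes and of 105 over the whole list. The median percentile within the list was 92.7 for members and 70.9 for host-nested genes. By rank, 5 of the top 10 peaks of the list, 8 of the top 20, 14 of the top 50 and 18 of the top 100 were at members. These describe 1 list, with no test.

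Summits lay just before the snoRNA. The median summit was 32 bp upstream of the start (quartiles 23.2 bp downstream and 50.8 bp upstream). Of the 44, 31 were upstream, 1 was at the start and 12 were downstream, and 29 fell between 15 and 72 bp upstream, a range read off the data. At host-nested genes the median was 36 bp upstream (quartiles 34 downstream and 67 upstream).

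**Figure D2:**
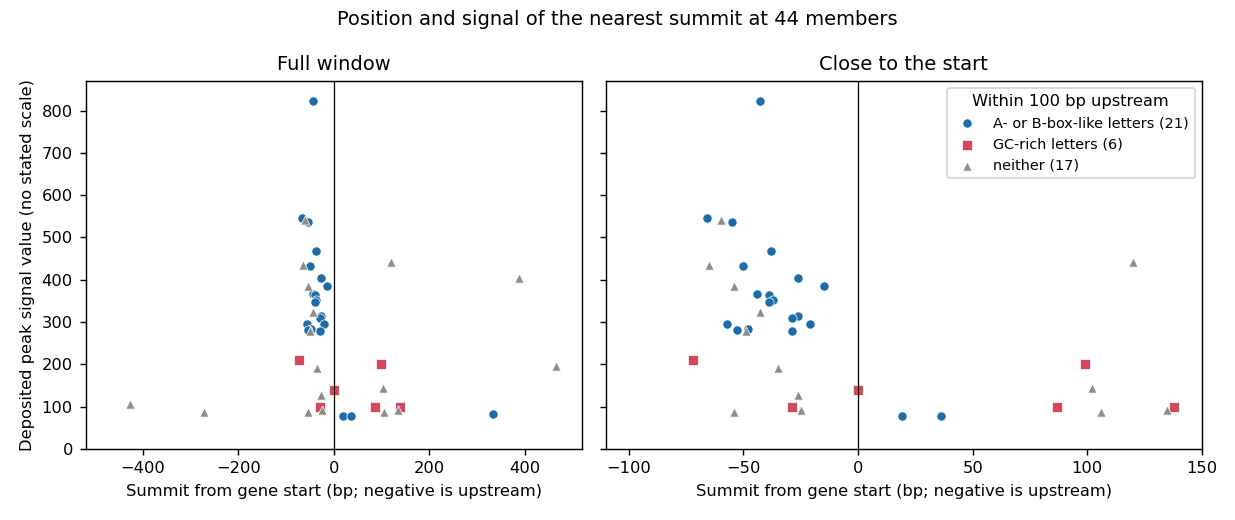
Signal value of the nearest summit (no stated scale, linear axis) against its distance from the gene start in bp for the 44 occupied members, over the full window (left) and close to the start (right). Symbols give the strings found within 100 bp upstream, and the strongest summits crowd between 15 and 72 bp upstream, most of them blue (A- or B-box-like letters).

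The strongest summit of the whole list was at T19B4.8, an intergenic gene on chromosome I, with a signal of 822, 386 in replicate 1 and 451 in replicate 2. Its summit was 43 bp upstream. It was also the strongest of the members in each replicate.

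W03C9.9 on chromosome II (11960898 to 11960959, plus strand) followed among members with 545, from 243 and 302 in replicates 1 and 2. Its summit, 66 bp upstream, fell on the A-box-like string printed above.

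Y23H5B.10 on chromosome I had 541, from 279.8 in replicate 1 and 261 in replicate 2, with the summit 60 bp upstream. T03F7.8 on chromosome V, antisense to the cuticlin-like gene cutl-18, had 537, from 239 and 299.9, with the summit 55 bp upstream. Y23H5B.10 was thus higher in replicate 1 and T03F7.8 in replicate 2, and neither replicate was the higher at all members. F32E10.10 on chromosome IV had 469, from 214 and 256. ZK265.10 on chromosome I had 434, from 228 and 203, and T06C12.16 on chromosome V had 432, from 195 and 233. These intergenic genes had their summits 38, 65 and 50 bp upstream. Y75B12B.12 had 385, from 177 and 194, with its summit 15 bp upstream. W01C9.6 also had 385, from 166 and 203, with its summit 54 bp upstream.

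C41C4.11 on chromosome II was the exception among the strong summits. Its signal was 366 in the list of both and 166 in replicate 1, 44 bp upstream, and no candidate peak of replicate 2 overlapped it. The 12 occupied members ranked above it overlapped peaks in both replicate lists. T27A3.9 on chromosome I came next with 363, from 178 and 187, with its summit 39 bp upstream. T02E1.9, on the same chromosome, had 352, from 165 and 195, with its summit 37 bp upstream.

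Of the intergenic members with weaker but recurring summits, T10B9.11, ZK643.9, F30H5.4, C53B7.8, Y39G10AR.24, Y53F4B.48 and K02C4.8 had signals from 279 to 314, with summits 21 to 57 bp upstream. F59C6.15 followed with 209, from 113 in replicate 1 and 98.2 in replicate 2, and C46C2.8 with 192, from 87 and 111. All of these were in both replicate lists. F55H12.9 had 143, from 66 and 68.8, with its summit 102 bp downstream and inside the gene. T26A8.6 had 139.7, from 69.9 and 75.2, with its summit at the start. M7.15 had 128, from 52 and 60.3, with its summit 26 bp upstream, and K07C10.2 had 92.8, from 53.6 and 28.6, with its summit 25 bp upstream. In the list of replicate 2 the summit at K07C10.2, with 28.6, lay elsewhere, 110 bp downstream of the start. Of these 4, T26A8.6 alone was in both replicate lists.

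Antisense-nested members lie inside a protein-coding gene that is read from the other strand. The summit was ahead of the snoRNA in 5 of the 11 occupied ones and downstream of its start in the other 6, with a median 19 bp downstream. The 11 had signals from 78.7 to 537 with a median of 323, and 8 were in both replicate lists. C27H5.9, antisense to the PDE-delta-like gene pdl-1, had 405, from 192 in replicate 1 and 218 in replicate 2, with the summit 26 bp upstream. The same summit lay 388 bp downstream of the start of C27H5.10, whose call rests on it alone. This was the only summit that members shared.

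C04G6.12, antisense to the MAP kinase gene mpk-2, had 348, from 151 and 187, with the summit 39 bp upstream. T04A8.17, antisense to ppat-1, which encodes an enzyme of purine synthesis, had 323, from 161 and 163, with the summit 43 bp upstream. ZK484.9, antisense to the ABC transporter gene haf-9, had 309.7, from 148 and 159, with the summit 29 bp upstream. These and T03F7.8 and C27H5.9 had the summit ahead of the snoRNA and not in it.

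The remaining antisense-nested members, like C27H5.10, had their summits downstream of the start. B0334.12, antisense to the potassium channel gene twk-5, had 443, from 226 in replicate 1 and 211 in replicate 2, with the summit 120 bp downstream and past the end of the 70-base gene. Y55F3BR.9, antisense to Y55F3BR.2, had 201, from 99.8 and 96.8, with the summit 99 bp downstream, also past its end. ZK185.9 (antisense to ZK185.2) had 98.7, F07A11.15 (antisense to the corepressor gene din-1) had 90.6 and C17D12.8 (antisense to the centrosome gene pcmd-1) had 78.7. These weaker summits lay inside the snoRNA gene, 138, 135 and 19 bp from its start. None of these 3 was in both replicate lists.

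Agreement between the replicates followed the strength of the summit. Peaks at 29 of the 44 members overlapped both replicate lists (65.9%, interval 50.1 to 79.5), against 600 of all 1804 peaks (33.3%) and 24 of 45 at host-nested genes (53.3%). A further 2 were in the list of replicate 1 alone, 6 in that of replicate 2 alone and 7 in neither. All members found in both lists had a signal of 139.7 or more, and all members not found in both had 143 or less, except C41C4.11. Members' summits were also the stronger ones of the list, and the part of strength in this share was not tested.

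Candidate peaks in the ranked lists of both single replicates gave a pair of values for 42 of the 43 summits. The exception was the strong summit at C41C4.11, which no candidate of replicate 2 overlapped and which the following values leave out. Across the 42 summits, which share their libraries, Pearson's r was 0.973 and Spearman's rho 0.95, given as a description. The ratio of the replicate 2 to the replicate 1 value ran from 0.534 to 2.20 with a median of 1.07, and 29 of 42 were higher in replicate 2. Over 1765 peaks of the whole list the median was 1.08.

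**Figure D3:**
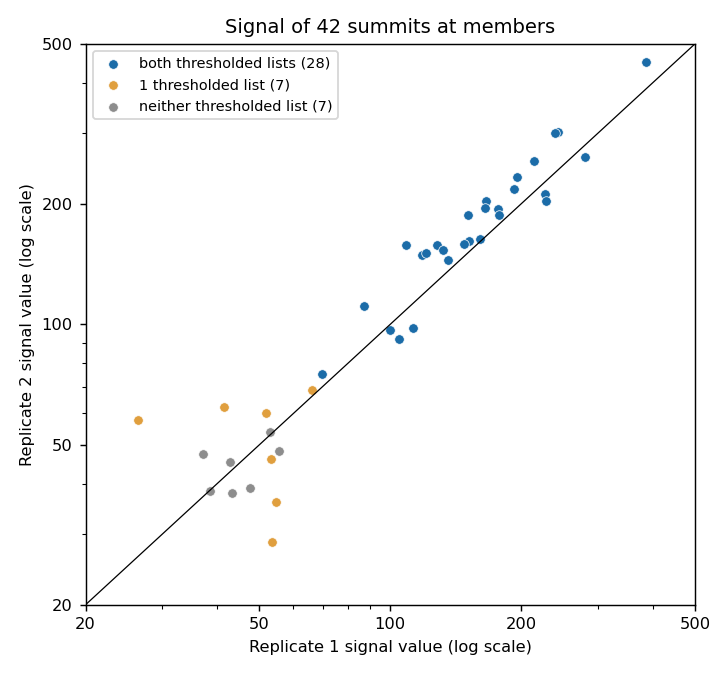
Signal value in replicate 1 against replicate 2 (both axes log scale, no stated unit) for the 42 summits at members with a candidate peak in each replicate, coloured by presence in the thresholded lists of single replicates, with the line of equal values. The 28 summits in both lists follow the line up to 386 and 451 at T19B4.8, and the plotted summits outside 1 or both lists sit at the low end. C41C4.11, with 366 in the list of both replicates, has no replicate 2 candidate and is not plotted.

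The members found in the list of both replicates but in neither single list were weak. W01H2.11 on X had 107, from 53 in replicate 1 and 53.9 in replicate 2, with its summit 427 bp upstream. C16D9.10 on chromosome V had 97.7, from 55.7 and 48.3, with its summit 29 bp upstream. F37F2.4 had 87.8, from 37.2 and 47.5. ZK20.9 had 87.3, from 43 and 45.3, and T21B4.20 also had 87.3, from 47.8 and 39. None of these 5 had a value above 55.7 in a single replicate. At T21B4.20 the summit lay 106 bp downstream of the start and 76 bp from the start of the miRNA gene cel-mir-77. At M163.14 (195, summit 465 bp downstream) it lay 20 bp from the start of the tRNA gene WBGene00014449. Both summits were thus nearer the other gene, and which gene they belong to was not tested. Without these members and C27H5.10, which shares a summit, 41 of 160 members were occupied (25.6%). The search covered tRNA, snRNA, miRNA and rRNA genes only.

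Letters resembling tRNA promoters were more frequent before occupied members than before the others. The B-box-like string GTTCNANNC stood on the gene strand in the 100 bp upstream of 14 of 44 occupied members (31.8%), 7 of 119 members with no summit (5.88%) and 1.39% of all genes. The A-box-like TGGCNNA was found for 16 of 44 (36.4%), 16 of 119 (13.4%) and 4.55% of all genes. Host-nested occupied genes had the strings at 17.8% and 35.6%. Both strings were loosened from stricter ones after the sequences had been seen. The difference in GTTCNANNC was seen among members with lower gene numbers (described further on), at 14 of 33 occupied and 2 of 19 others. Among those with higher numbers it preceded 0 of 11 occupied members and 5 of 100 others, and both strings together preceded 0 of 11 and 2 of 100. TGGCNNA preceded 14 of 33 occupied and 5 of 19 other lower-number members, and 2 of 11 and 11 of 100 higher-number ones.

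The stricter strings gave lower counts in the same direction. In the window from 250 bp before to 50 bp after the start, on both strands, GTTCGANNC was found for 7 of 44 occupied members (15.9%), 5 of 119 others (4.2%) and 2.51% of all genes. By the list of replicate 1 alone it was found for 8 of 33 (24.2%), and by that of replicate 2 alone for 6 of 36 (16.7%). TGGCNNAGT was found for 9 of 44 (20.5%), 7 of 119 (5.88%) and 2.38%. Another string of the A box, AGTGGT, differed less in this window, at 10 of 44 (22.7%), 21 of 119 (17.6%) and 9.38%. The homeodomain core TAAT ran the other way, at 84.1% of occupied members, 91.6% of the others and 95.5% of all genes, and so did the TATA string TATAAA, at 20.5%, 32.8% and 37.4%. TAAT is so short that nearly every window of this length holds it. In the 100 bp upstream, on the gene strand, it was found for 6 of 44 occupied members (13.6%), 37 of 119 others (31.1%) and 50.6% of all genes. AGTGGT differed more there, at 8 of 44 (18.2%), 5 of 119 (4.2%) and 1.15%. A match is a description of letters and not a binding site.

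Base composition moved with these counts. The 100 bp before the start had a median of 54% G and C at occupied members, 44% at the others, 55% at occupied host-nested genes and 31% at all genes. Its part in the counts of TAAT and the other strings was not tested.

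The A and B strings stood together, in that order, before 13 members, and 9 of these were occupied (69.2%). All 9 had lower gene numbers, a set of which 63.5% were occupied whatever their letters. Among lower-number members the pair preceded 9 of 33 occupied ones and 2 of 19 others. Among higher-number members it preceded 0 of 11 and 2 of 100. The pair was not particular to the members, since it also preceded 5 of 45 occupied host-nested genes (11.1%), and 0 of 138 host-nested genes with no summit. Among all genes 31 had it (0.0661%), and no tRNA gene had it upstream. The 9 occupied genes had signals from 281 to 822 with a median of 366, and 8 were in both replicate lists, C41C4.11 being the exception. The A string began 54 to 72 bp before the start and the B string 11 to 27 bp before it, 39 to 45 bp apart (median 44). All 9 summits lay between the start of the A string and the end of the B string. The pair also preceded Y6B3B.15, H04D03.5 and Y59E1B.14, which had no candidate peak within 500 bp in the ranked list of both replicates, and F12F6.11.

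**Figure D4:**
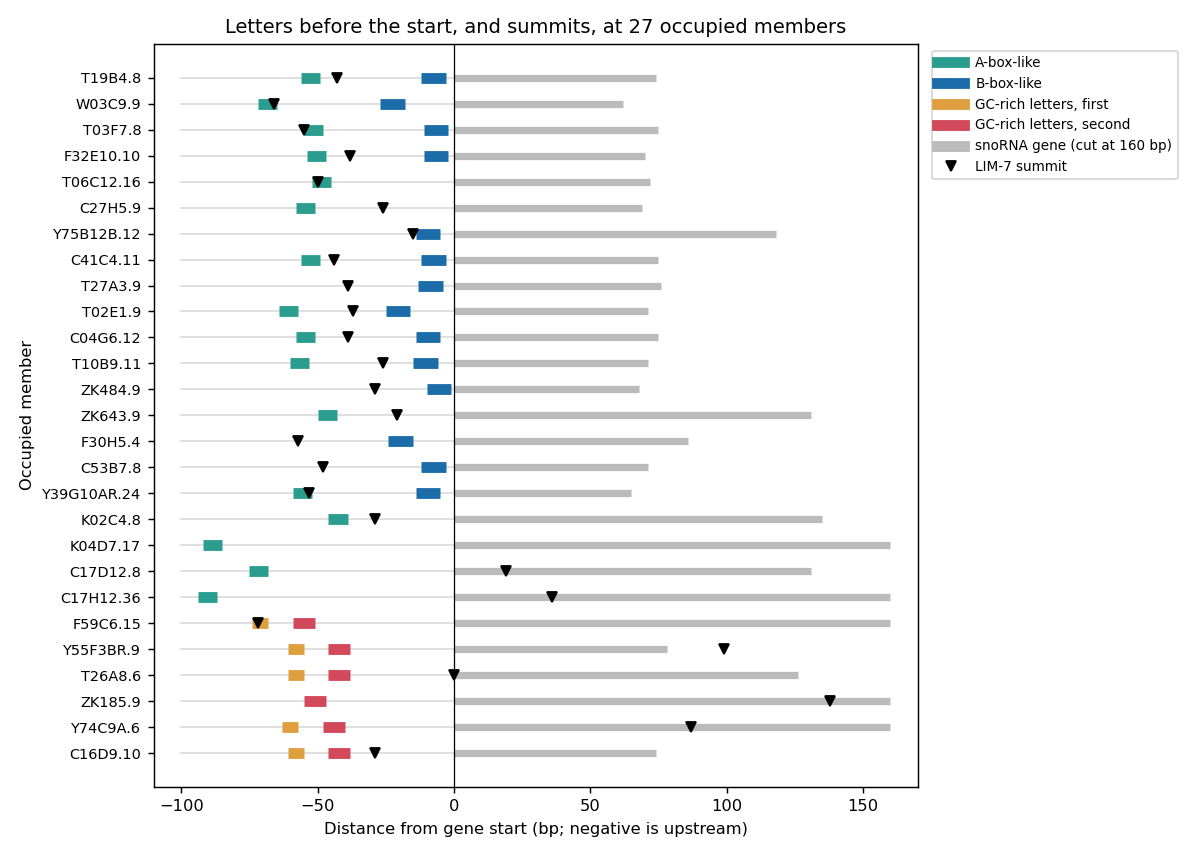
Positions of the A-box-like, B-box-like and GC-rich strings within 100 bp upstream, and of the LIM-7 summit (triangle), relative to the gene start in bp for the 27 occupied members with any of them, ordered within each kind by signal. In the 9 members with both A and B strings the summit lies between or on them, and in most members with the GC-rich strings it does not; the summit of K04D7.17 at 333 bp downstream is off the scale.

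Members with either string numbered 40, of which 21 were occupied, with a median signal of 348 and 17 in both replicate lists. The 3 weakest of these, K04D7.17, C17D12.8 and C17H12.36 (82, 78.7 and 77.8), carried the A string alone, 75 bp or more before the start, and their summits lay downstream. The GC-rich strings preceded 6 further occupied members, F59C6.15, Y55F3BR.9, T26A8.6, ZK185.9, Y74C9A.6 and C16D9.10, with signals from 97.7 to 209, a median of 119 and 3 in both lists. GTCGGNCG was rare elsewhere, in the 100 bp upstream of 0.168% of all genes, but it preceded 10 of 119 members with no summit (8.40%) beside 6 of 44 occupied ones (13.6%). CGGAAC stood before 5 of 44 and 16 of 119, and before 0.915% of all genes. Among lower-number members both were less frequent before occupied ones. There GTCGGNCG preceded 4 of 33 occupied members and 4 of 19 others, and CGGAAC 4 of 33 and 9 of 19. Among higher-number members GTCGGNCG preceded 2 of 11 and 6 of 100, and CGGAAC 1 of 11 and 7 of 100.

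The remaining 17 occupied members, of 103 with none of these strings, had signals from 87.3 to 541 with a median of 192. Y23H5B.10, ZK265.10 and W01C9.6 were among them, with summits at the same distance as the genes above. A run of 4 T, the usual end signal of RNA polymerase III, stood within 50 bp after the gene for 35 of 44 occupied members (79.5%), 71 of 119 others (59.7%), 98.9% of tRNA genes and 61.0% of all genes. Among lower-number members it followed 27 of 33 occupied ones (81.8%) and 14 of 19 others (73.7%). Among higher-number members the counts were 8 of 11 (72.7%) and 57 of 100 (57%). For host-nested genes the shares were 84.4% of occupied ones and 70.3% of the others.

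The occupied members were of both guide kinds as far as their ends tell. Letters of boxes C and D at the ends were found in 13 members, of which 8 were occupied, with signals from 78.7 to 545, a median of 249 and a median length of 76.5 bases. Only 4 of these 8 were in both replicate lists, and C41C4.11, Y74C9A.6, C16D9.10 and C17D12.8 were not. By the list of replicate 1 alone 6 of the 13 were occupied (46.2%), and by that of replicate 2 alone 4 (30.8%), against 61.5% in the main list. An ACA placed 3 bases from the 3′ end, the mark of a box H/ACA RNA, was found in 13, of which 7 were occupied, with signals from 192 to 385, a median of 284 and a median length of 131. These 7 were W01C9.6, T04A8.17, ZK643.9, C53B7.8, Y53F4B.48, K02C4.8 and C46C2.8, and all were in both replicate lists. C53B7.8 and C46C2.8 are 71 and 73 bases long, near the length of members with C and D letters. The others are 130 to 138 bases long. An ACA at 1 place is only 3 letters and can match by chance. Its share over all genes was not taken, so the match alone does not settle the kind. K02C4.8, whose summit (279, from 109 and 158) lay 29 bp upstream, shows the form, with every ACA in capitals and the last of them before the final 3 bases.
K02C4.8, chrII:8075509-8075643, plus strand: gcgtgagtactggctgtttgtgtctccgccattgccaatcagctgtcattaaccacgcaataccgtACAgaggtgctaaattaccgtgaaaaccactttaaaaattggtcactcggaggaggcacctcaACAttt

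Neither set of letters was found in 137 members, of which 29 were occupied (21.2%). Most members with either set had lower gene numbers (described below). Among lower-number members 8 of 12 with C and D letters, 7 of 9 with the ACA and 18 of 31 with neither were occupied. Among higher-number members 0 of 1 with C and D letters and 0 of 4 with the ACA were occupied. The search took exact letters at the annotated ends, so a gene annotated a few bases too long or too short was missed.

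The 163 members fell into sets that differed in occupancy by their WormBase gene number, a split noticed after the values were seen. Members with lower numbers (WBGene00007539 to WBGene00077461) were occupied in 33 of 52 cases (63.5%, interval 49 to 76.4), with a median signal of 323 and 28 in both replicate lists. Members with higher numbers (WBGene00195245 to WBGene00235235) were occupied in 11 of 111 cases (9.91%, interval 5.05 to 17), with a median of 90.6, none above 143, and 1 in both lists. By replicate 1 alone, 2 of these 111 were occupied (1.80%), and by replicate 2 alone 6 (5.41%). The summit lay 15 to 72 bp upstream in 27 of 33 of the former and in 2 of 11 of the latter.

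The split was seen within each position. Of lower-number members, 21 of 32 intergenic and 9 of 17 antisense-nested ones were occupied, and of higher-number members 9 of 92 and 2 of 16. Host-nested genes also differed, at 39 of 87 (44.8%) and 6 of 96 (6.25%). Members of the higher set were longer, with a median of 157 bases against 77, and the letters of boxes C and D were found in 1 of them and the ACA in 4. The parts of length and of annotation in the difference were not tested.

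Of the 119 members with no summit in the main list, 77 (64.7%) had a candidate peak within 500 bp in the ranked list of both replicates, which holds 84720 candidates, against 42.6% of all genes. The candidates had a median signal of 46.7 (38.7 over all genes with one), and 16 had an IDR of 0.05 or less. WBGene00220185, an intergenic gene on chromosome IV, stood apart with a signal of 426 and an IDR of 1.00e-05, 411 bp upstream, and Y119C1B.13 had 88.6 with an IDR of 0.00485. Both pass the limit of 0.01 yet are absent from the thresholded lists, and what removed them is not given in the sources used here. W06H8.17 had 82.8 with an IDR of 0.0141, T28B8.11 82.8 with 0.0172 and ZK484.11 80.2 with 0.0147. These 3 missed the limit.

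A summit in another thresholded list was found for 6 of the 119. H09I01.2, a lower-number gene on chromosome IV, had a summit with a signal of 179 in replicate 2, 51 bp upstream, and no candidate near it in the ranked list of both. F12F6.11, which has the A and B strings, had a summit with 73.5 in replicate 1, 23 bp upstream. W03B1.17 had one with 33.7 in replicate 1. The conservative list held summits at C26C6.13 (92.7), K09E9.5 (88.1) and T19E7.29 (72). A further 3 members, F09G2.14, T27A8.8 and F20D12.10, had a summit of the main list between 500 and 1000 bp from the start.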

How the data were processed

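LIM-7 binding was measured by ChIP-seq in 2 biological replicates of 1 group. Per the labels, the authors deposited peak lists in ce11, whose sequence is that of WBcel235. For the aligner, and likewise for the peak caller, a name is not given in the sources used here. Used were the authors' thresholded lists of each replicate and of both, the conservative list of both, and the ranked candidate lists. The deposited signal value, the unit signal, has no stated scale. The IDR in the deposited ranked lists is on a −log10 scale and was converted. The deposited peak starts and summit offsets gave the summit positions. A total of 24 unlabelled columns in the ranked lists were not used. All peaks of the thresholded lists had an IDR of 0.01 or less.

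The nearest summit within 500 bp of each gene start was assigned in Python 3.11.15 (numpy 2.4.6, pandas 2.3.3, scipy 1.17.1, matplotlib 3.10.9), with genes from Ensembl release 115. Peaks overlapping by 1 bp counted as shared. The assignment was checked on simulated peaks. Depth is unknown, and 1 group of peak lists gives no test, so intervals are exact 95% binomial intervals. Members and strings were chosen with earlier results of these data known.

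Named were members with the 15 highest signals, up to 5 each found in the list of both alone, in another list alone, or as candidates alone (by rank), all occupied antisense-nested members and those sharing a summit. Other members were named after their values were seen. Alternatives were other lists, replicates alone, distances, host rules and strings.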

Additional observations from a re-analysis of the deposited data

How the results depend on the processing

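Of 78 alternatives over 11 results, 62 stayed within the spread of the value reported and 16 did not. For shares the spread was the exact binomial interval, which covers counting error only and is wide for small groups. For medians it was the SD of the 2 replicate lists. These counts therefore do not measure how stable the values are to processing. The share of occupied members was 27% in the list of both replicates, 20.2% in its peaks above the median signal and 20.2% to 22.1% with each replicate left out in turn. For host-nested snoRNA genes (24.6%) these values were 15.3% and 16.9% to 18.0%, and the share was 31.7% within 1000 bp. For members with higher gene numbers (9.91%) they were 3.60% and 1.80% to 5.41%, the lowest being without replicate 2. The median percentile (92.7) was 94.3 within 200 bp and 89.5 to 90.4 with a replicate left out. The median upstream distance (32 bp) was 37 in the conservative list, 39 above the median signal and 34.5 to 39 with a replicate left out. The looser strings described above, added after seeing the data, moved the share with B-box letters from 15.9% to 31.8% and that with A-box letters from 20.5% to 36.4%. These shorter lists hold fewer peaks by construction, so lower shares there follow in part from list length. Depth is unknown, so what was not detectable cannot be stated. No paired analysis was possible because there is 1 group.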

Other observations

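The letters of boxes C and D at B0334.12 lay on the strand opposite to its annotation. The gene (chrII:11484683-11484752) is on the plus strand, antisense to twk-5, and its summit, with a signal of 443, lay 120 bp downstream of the annotated start. Read on the other strand, the gene has TGATG near its 5′ end and CTGA near its 3′ end, and the summit is 51 bp before that 5′ end. The A-box-like string then begins 62 bp and the B-box-like string 18 bp before it. Only 1 of the 163 members has the pair of strings on the other strand, and 2 have the letters of boxes C and D there, B0334.12 and K07C10.2. On that strand B0334.12 would lie within twk-5 on the same strand and would be host-nested. The 100 bp around the summit on the minus strand are shown for the strings, in capitals.
B0334.12, chrII:11484753-11484852, minus strand: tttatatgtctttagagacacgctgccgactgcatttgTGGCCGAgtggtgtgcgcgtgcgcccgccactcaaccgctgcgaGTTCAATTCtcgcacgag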
